A study of Arabidopsis thaliana with 20 samples.

Results

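Steady-state mRNA of rz-1b rz-1c mutant seedlings was compared with that of the wild type, Col-0. The comparison rests on 6 of the 20 libraries of the series, 3 per genotype, which the authors' table gives as 1 pooled value per genotype for each of 33554 genes. Of these genes, 20361 reached at least 1 FPKM (a level scaled by gene length and library total) in the higher genotype and were kept. Every group was made of whole Arabidopsis thaliana seedlings grown on plates of half-strength medium at 22 °C with 16 h of light and 8 h of dark, and taken at 10 days. No treatment is labelled, and the mutant alleles and the way the mRNA libraries were made are not given in the sources used here. The series also holds 8 libraries of chromatin-bound RNA from the same genotypes, whose values are set beside the mRNA below, and 6 of RNA crosslinked to protein, which were not analysed here.

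The RZ-1 proteins pair an RNA-binding domain with a glycine-rich stretch and a zinc finger, and RZ-1B and RZ-1C are known in Arabidopsis to bind pre-mRNA, to interact with SR splicing factors and to affect splicing. The level of an mRNA reflects both how fast it is made and how fast it is degraded, whereas RNA held on chromatin is rich in transcripts still being made. In a growing seedling the mRNAs of seed filling are normally gone, the oil reserve has been spent, and photosynthesis, mineral uptake and defence set much of the mRNA pool.

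With 1 value per genotype there is no spread between replicates and no test of any mRNA difference, so genes are described as higher or lower when the log2 ratio of FPKM + 1, mutant over wild type, was at least 1 in size. On this scale 1122 genes were higher in the mutant (5.51% of those kept) and 1210 were lower (5.94%), with a median log2 ratio of -0.01 over all kept genes. The largest differences lay on the higher side: 145 genes were higher by a log2 of at least 3 and 55 lower, and at a log2 of at least 5 the counts were 28 and 8. A gene can pass the level filter through a single genotype, as 852 genes did with wild-type values under 1 FPKM and 715 with mutant values under 1 FPKM, and such a gene is kept only through the genotype where it is high. They made up 423 of the higher genes and 250 of the lower genes. The 279 organelle genes of the table stand at 0 throughout and are not read, and depth is unknown.

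Chromatin-bound RNA offers a second view of the same genotypes, with 2 replicate columns each. Among 18955 genes with at least 1 FPKM in both kinds of RNA, 7.78% were past 2-fold higher in the mutant and 3.28% past 2-fold lower, while both mutant columns stood above both wild-type columns for 48.7% and below them for 15.9%. That imbalance goes with a general shift, a median log2 ratio of 0.25, and with ribosomal RNA genes that held 53.6% and 60.5% of the wild-type totals against 31.6% and 34.1% of the mutant totals. Its part in single ratios was not tested. Of 996 genes higher in mRNA with a chromatin-bound value, 427 (42.9%) were also past 2-fold higher on chromatin and 128 (12.9%) were past 2-fold lower there. Of 903 genes lower in mRNA, 137 (15.2%) were past 2-fold lower on chromatin and 59 (6.53%) past 2-fold higher.

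**Figure D1:**
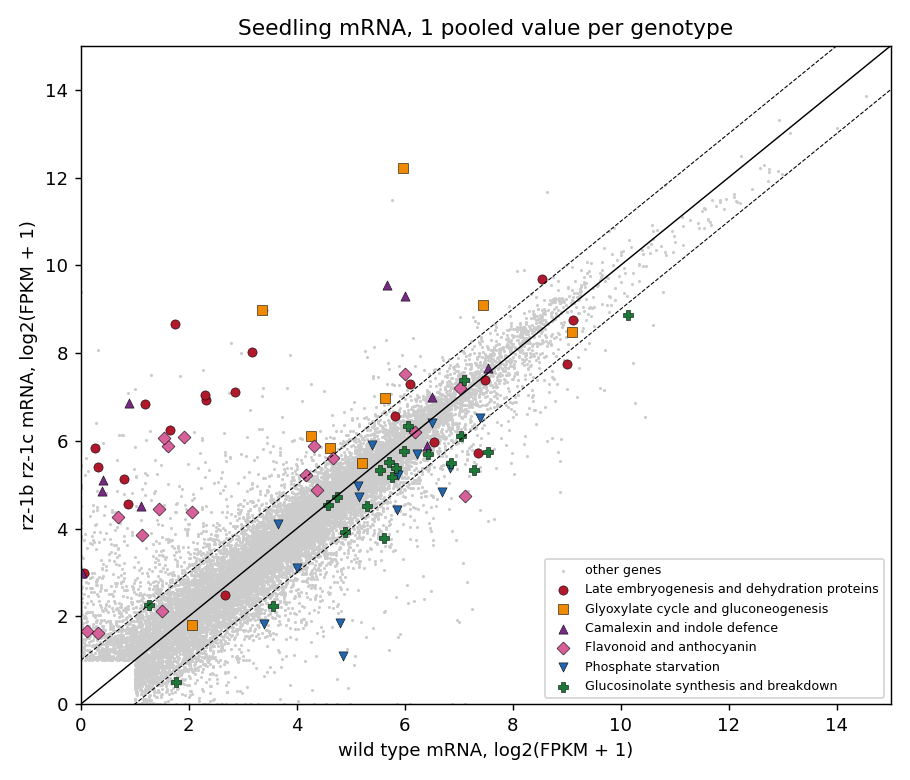
Level of each kept gene in the wild type (x axis) and in rz-1b rz-1c (y axis), both as log2(FPKM + 1), with 6 gene lists coloured; the solid line marks equal levels and the dashed lines 2-fold. Late embryogenesis, glyoxylate cycle, camalexin and anthocyanin genes reach far above the upper dashed line, while phosphate starvation and glucosinolate genes lie on or below the diagonal more often than above it.

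**Figure D2:**
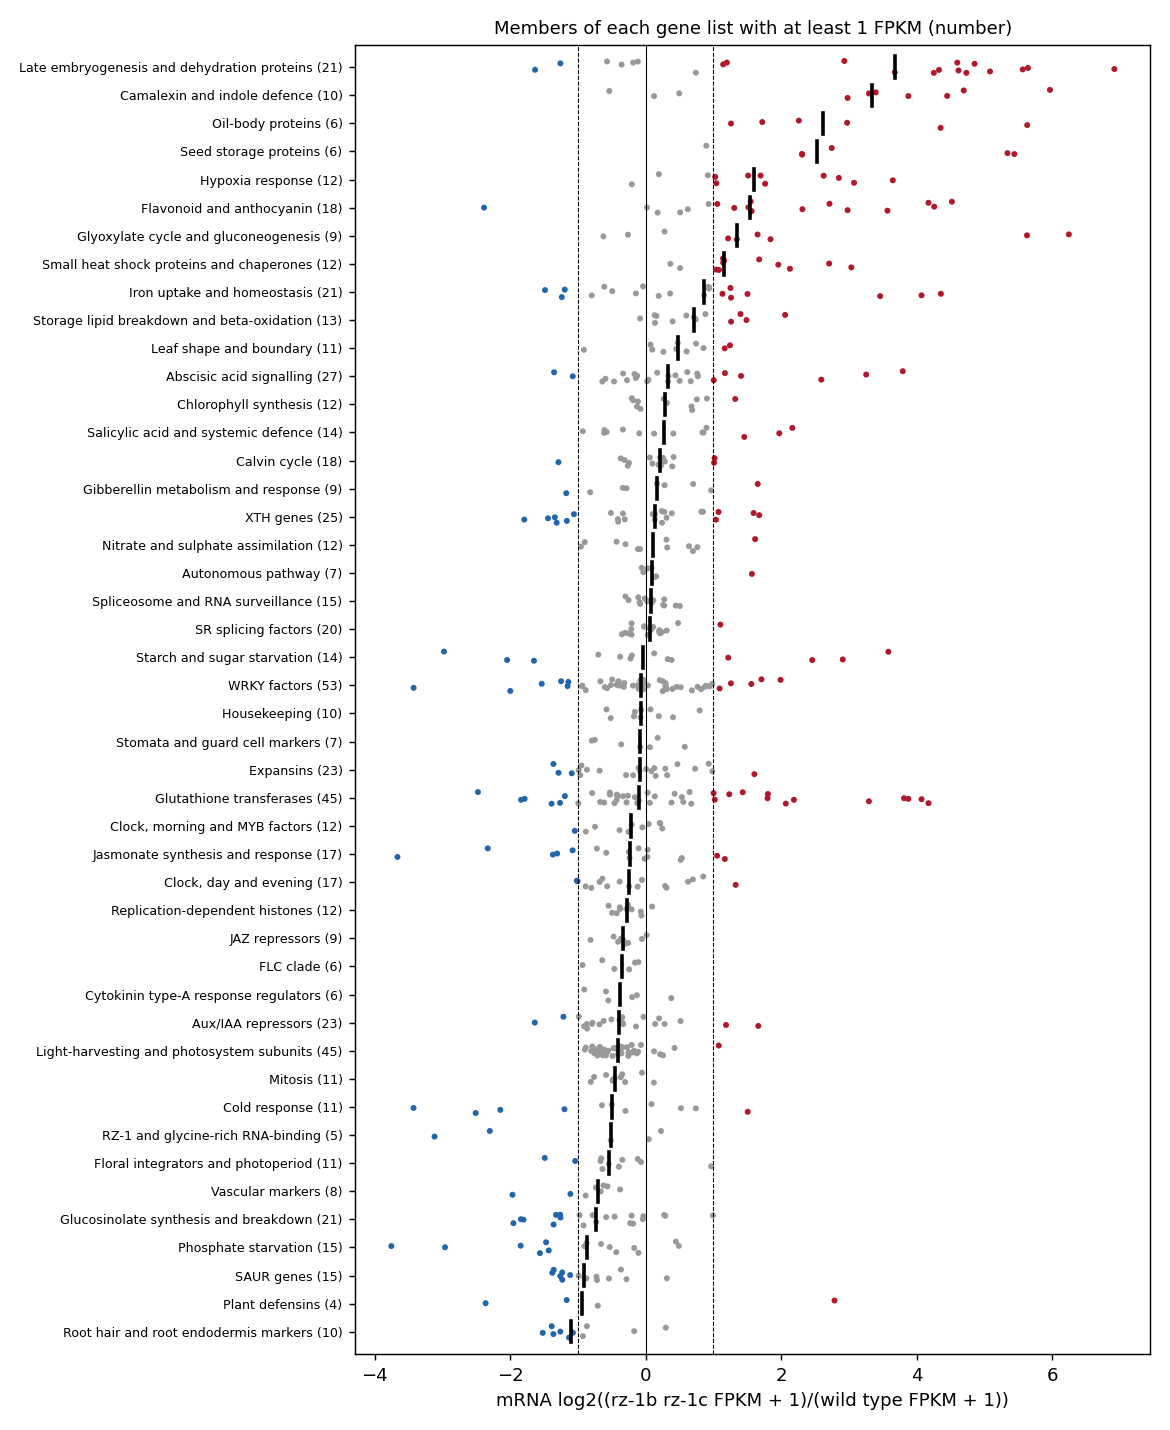
Log2 ratio of mRNA (x axis) for every member with at least 1 FPKM of each gene list described in the results with 4 or more such members, 1 point per gene, red when higher past 2-fold and blue when lower; black bars are list medians and the number kept is in brackets. The medians drawn run from 3.68 for late embryogenesis proteins to -1.10 for root markers; the 4 lists chosen after their values were seen are not drawn.

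The mutated genes themselves were read first. RZ-1C (AT5G04280) mRNA was 31.7 FPKM in the wild type and 2.77 FPKM in the mutant, a log2 ratio of -3.11. Its chromatin-bound values were 16.7 and 13.1 FPKM in the wild-type columns and 4.59 and 4.27 FPKM in the mutant, lower than the wild type as in mRNA. RZ-1B (AT1G60650) mRNA was 15.2 FPKM against 2.30 FPKM in the mutant, a log2 ratio of -2.30. On chromatin RZ-1B went the other way, from 10.5 and 9.42 FPKM to 132 and 143 FPKM. RZ-1A (AT3G26420), the remaining family member, stood at 7.33 and 8.75 FPKM in mRNA (log2 ratio 0.23). The related glycine-rich proteins GRP7 and GRP8, which have no zinc finger, were within 2-fold, at log2 ratios of -0.52 and 0.05.

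Genes of seed maturation held some of the largest differences and were at low levels in the wild type. Of 8 seed storage protein genes, 6 were kept, 5 of these with wild-type values under 1 FPKM and so only through the mutant. Of the 6, 5 were higher, with a median log2 ratio of 2.53, and 3 were higher when 5 FPKM in place of 1 was added to each value. Cruciferin CRA1 (AT5G44120), a globulin stored in the seed, was 5.92 FPKM in the wild type and 299.5 FPKM in the mutant (log2 ratio 5.44), and cruciferin CRC was 0.731 and 69.1 FPKM (5.34). The 2S albumins were far lower in level, with SESA1 at 0.182 and 6.93 FPKM, SESA2 at 0.182 and 4.86 FPKM and SESA3 listed at 0 in the wild type and at 3.95 FPKM in the mutant. These albumin genes are neighbours of similar sequence, so their shares of the reads are uncertain. Summed over the list, storage protein mRNA was 7.41 FPKM in the wild type and 387.0 FPKM in the mutant, almost all of it from CRA1 and CRC. In whole seedlings, more cells or plants that carry such mRNA and more mRNA per cell cannot be told apart.

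Oil-body coat proteins showed the same picture. Of 7 genes, 6 were kept and these 6 were higher, 5 of them with wild-type values under 1 FPKM, and 3 were higher with 5 FPKM added. Oleosin OLEO2 (AT5G40420) was 2.59 FPKM in the wild type and 176.9 FPKM in the mutant (log2 ratio 5.63). OLEO1 was 0.749 and 34.7 FPKM, OLEO3 0.571 and 11.3 FPKM, and OLEO4 0.305 and 5.25 FPKM. The caleosins CLO1 and CLO2, calcium-binding proteins of the same oil bodies, reached only 1.46 and 2.30 FPKM in the mutant.

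The late embryogenesis abundant (LEA) and dehydration proteins, which protect cells when seeds dry, were mostly higher. Of 21 genes, 14 were higher and 2 lower, with a median of 3.68, and 5 of the 21 had wild-type values under 1 FPKM. The LEA family gene AT3G15670 was 2.37 FPKM in the wild type and 406.2 FPKM in the mutant (log2 ratio 6.92). M17 (AT2G41260) was 1.296 and 113.6 FPKM (5.64), EM1 0.209 and 56.2 FPKM (5.56), and ECP63 0.257 and 41.6 FPKM (5.08). The higher group also held LEA7 at 7.99 and 259.0 FPKM and RD29B, a gene known for induction by abscisic acid in vegetative tissue, at 3.93 and 130.2 FPKM. RAB18, a dehydrin of seeds and stressed leaves, was 67.2 and 155.5 FPKM (1.20). The 2 lower genes were dehydrins induced by cold and drought: ERD10 was 163.5 and 52.1 FPKM (-1.63), COR47 516.6 and 215.6 FPKM (-1.26). Their relative ERD14 was 555.4 and 434.3 FPKM (-0.35), and the other genes within 2-fold lay between -0.57 and 0.74.

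Chromatin-bound RNA of the LEA genes mostly had the direction of the mRNA. Both mutant columns were above both wild-type columns for 14 of the 21 and below for 1, against 48.7% and 15.9% of all genes. RD29B had 0 in both wild-type columns and stood at 22.6 and 21.1 FPKM in the mutant columns. EM6, another LEA protein, was likewise listed at 0 in both, and was at 7.47 and 8.17 FPKM in the mutant. CRA1 was at 1.14 FPKM and listed at 0 in the wild-type columns and at 44.8 and 58.4 FPKM in the mutant columns.

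The transcription factors known to drive this programme were not higher as a group. Of 5 embryo regulators, ABI3 alone was kept, at 0.213 FPKM in the wild type and 10.6 FPKM in the mutant (log2 ratio 3.25), with chromatin-bound values of 0.179 and 0.362 against 4.10 and 6.31 FPKM. LEC1 was listed at 0 in both genotypes, and LEC2, FUS3 and L1L were under 1 FPKM in each. Further factors of abscisic acid (ABA) response in seeds went with ABI3. ABI4 was 0.0625 and 13.7 FPKM (3.79), and ABI5 (AT2G36270), the bZIP factor that acts on EM1 and EM6, was 2.16 and 18.1 FPKM (2.59).

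The ABA signalling list, which includes ABI3, ABI4 and ABI5, had 27 of 28 genes kept, 6 higher and 2 lower, and a median of 0.33. Over all genes 5.51% were higher and 5.94% lower. Of the 27, 4 had wild-type values under 1 FPKM and were kept only through the mutant, among them ABI3, ABI4 and AHG1. With 5 FPKM added, 3 of the list were higher and 0 lower. Outside the 3 ABI factors, the phosphatase AHG1, a negative regulator active in seeds, was 0.158 and 2.07 FPKM (1.41), the receptor PYL6 was 7.49 and 18.1 FPKM (1.17), and CYP707A1, which breaks ABA down, was 11.5 and 24.03 FPKM (1.01). NCED3, the rate-limiting enzyme of ABA synthesis under drought, was lower, at 8.73 and 2.82 FPKM (-1.35), as was the phosphatase HAI1 at 4.65 and 1.68 FPKM (-1.07). The core phosphatases ABI1 and ABI2 and the kinase OST1 stayed within 2-fold, at -0.64, -0.12 and 0.33. ABA markers of vegetative tissue were mixed, with RD22 and RD26 at 0.34 and -0.47 but RD29B, given above, at 4.73. RAB18, a dehydrin also given above, was past 2-fold higher too.

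Of 9 genes that turn seed oil into sugar, 6 were higher and none lower, and the largest ratios belonged to the pair of enzymes specific to the glyoxylate cycle. Isocitrate lyase, ICL (AT3G21720), was 61.9 FPKM in the wild type and 4773 FPKM in the mutant (log2 ratio 6.25). Malate synthase, MLS (AT5G03860), the other of the pair, was 9.23 and 505.0 FPKM (5.63). Steps shared with other pathways differed less: phosphoenolpyruvate carboxykinase PCK1 was 173.7 and 547.9 FPKM (1.65), pyruvate orthophosphate dikinase PPDK 18.4 and 68.5 FPKM (1.84), peroxisomal malate dehydrogenase PMDH1 48.7 and 125.3 FPKM (1.35) and peroxisomal citrate synthase CSY3 23.4 and 55.8 FPKM (1.22). Their counterparts PMDH2, PCK2 and CSY2 were within 2-fold, at -0.62, -0.26 and 0.28.

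Fatty acid beta-oxidation feeds that cycle, and here 4 of 13 genes were higher and none lower, with a median of 0.71. The multifunctional protein MFP2 was 41.6 and 176.4 FPKM (2.06), the acyl-CoA oxidase ACX2 37.1 and 106.0 FPKM (1.49), the acyl-CoA synthetase LACS7 12.2 and 33.8 FPKM (1.40) and the thiolase KAT2 161.5 and 388.5 FPKM (1.26). The lipase SDP1, which starts oil breakdown, was almost the same in both genotypes, at 22.2 and 24.5 FPKM. Chromatin-bound RNA of these genes showed little of this. MFP2 had 27.8 and 29.6 FPKM in the wild-type columns and 34.9 and 42.4 FPKM in the mutant, and KAT2 was lower in both mutant columns, at 81.3 and 92.3 FPKM against 116 and 129 FPKM. ICL and MLS, in contrast, were far above the wild type on chromatin, with ICL at 17.2 and 22.7 FPKM against 283 and 417 FPKM.

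**Figure D3:**
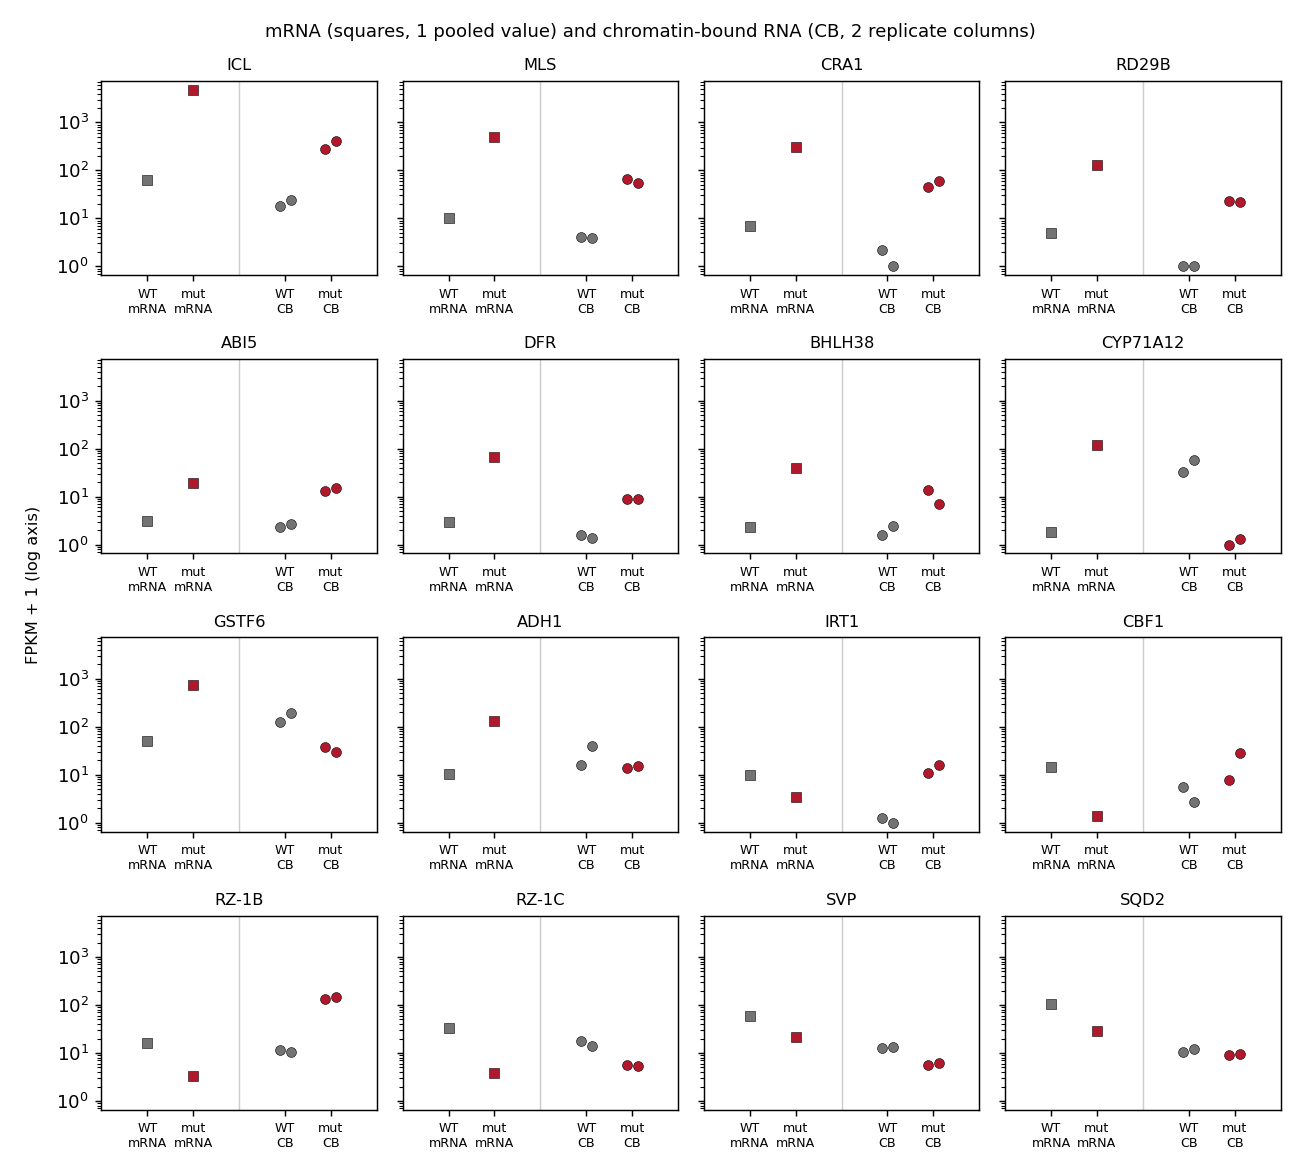
Levels of 16 genes on a log axis of FPKM + 1, in wild type (WT, grey) and rz-1b rz-1c (mut, red); squares are the pooled mRNA value and circles the 2 chromatin-bound (CB) replicate columns. ICL, CRA1 and RD29B are higher in the mutant in mRNA and on chromatin, CYP71A12 and GSTF6 are higher in mRNA and lower on chromatin, and IRT1, CBF1 and RZ-1B show the opposite pattern.

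Most flavonoid genes were higher, and the largest ratios belonged to enzymes and a carrier of the late, anthocyanin steps. Of 18 genes, 12 were higher and 1 lower, with a median of 1.53, and 3 of the 18 had wild-type values under 1 FPKM. Dihydroflavonol reductase DFR (AT5G42800) was 1.92 FPKM in the wild type and 66.0 FPKM in the mutant (log2 ratio 4.52), and anthocyanidin synthase LDOX was 2.09 and 58.1 FPKM (4.26). GSTF12, which is needed to carry anthocyanin to the vacuole, was 2.77 and 67.0 FPKM (4.17). The glycosyltransferases UF3GT and UGT75C1 were at 0.624 and 18.3 FPKM (3.57) and 1.75 and 20.7 FPKM (2.98). Among earlier steps, chalcone synthase CHS was at 63.5 and 183.5 FPKM (1.52), chalcone isomerase CHI at 19.1 and 57.8 FPKM (1.55), flavanone hydroxylase F3H at 24.6 and 47.7 FPKM (0.93), flavonoid hydroxylase TT7 at 3.17 and 19.7 FPKM (2.31) and flavonol synthase FLS1 at 19.8 and 28.5 FPKM (0.51). The general phenylpropanoid genes PAL1 and C4H were at 0.02 and 0.18.

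The regulators of anthocyanin genes differed with them. The activator PAP1, a MYB factor, was 1.19 and 13.4 FPKM (2.71), its relative PAP2 0.0789 and 2.19 FPKM (1.56) and the bHLH partner TT8 0.247 and 2.09 FPKM (1.31). MYBL2 (AT1G71030), a known repressor of the pathway, was the 1 lower gene of the list, at 138.8 FPKM in the wild type and 25.8 FPKM in the mutant (-2.38). On chromatin the mutant columns stood above the wild type for 14 of 17 genes and below for 3, against 48.7% and 15.9% of all genes. The 3 below were MYBL2, PAL1 and C4H.

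Genes known to respond to low oxygen were higher. Of 12, 9 were higher and none lower, with a median of 1.60. Alcohol dehydrogenase ADH1 (AT1G77120) was 9.32 and 128.4 FPKM (3.65) and pyruvate decarboxylase PDC1 was 5.80 and 48.1 FPKM (2.85), the pair of enzymes that ferment pyruvate to ethanol. The group VII ERF factor HRE2 was 1.17 and 17.3 FPKM (3.08), the haemoglobin HB1 21.7 and 139.6 FPKM (2.63), and the oxygen-sensing cysteine oxidases PCO2 and PCO1 were at 1.76 and 1.70. In chromatin-bound RNA the mutant columns were above for 3 genes, below for 3 and overlapping for 6. Over all genes 48.7% were above and 15.9% below. ADH1 on chromatin was 15.2 and 39.7 FPKM in the wild-type columns and 13.1 and 13.9 FPKM in the mutant.

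Heat shock protein genes were at low levels and mostly higher. Of 15 genes, 12 were kept and 10 were higher, 5 of the kept genes with wild-type values under 1 FPKM. The mitochondrial HSP23.5 was 2.65 and 28.9 FPKM (3.04) and its relative HSP23.6 0.122 and 6.33 FPKM (2.71). Cytosolic small heat shock proteins reached a few FPKM, HSP17.4 with 0.479 and 5.47 FPKM (2.13) and HSP17.6A with 0.536 and 4.97 FPKM (1.96). The heat shock factor HSFA2 stayed under 1 FPKM in both genotypes, and the chaperone HSP101 was at 2.52 and 3.53 FPKM (0.36). With 5 FPKM added to each value 2 members counted as higher, and with a filter at 5 FPKM 6 did.

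Iron homeostasis genes went in both directions, 7 higher and 3 lower among the 21 kept of 24, against 5.51% and 5.94% of all genes. The group Ib bHLH factors, which are induced in iron-deficient plants, were the highest ratios: BHLH100 was 0.382 and 27.3 FPKM (4.36), BHLH38 (AT3G56970) 1.29 and 37.5 FPKM (4.07) and BHLH39 1.57 and 27.3 FPKM (3.46). BHLH38 and BHLH39 are adjacent copies whose reads may be shared. The iron-regulated genes NAS4 (nicotianamine synthase), BTS (an iron-binding ubiquitin ligase), FRO3 (ferric reductase) and OPT3 (transporter) were at 1.50, 1.26, 1.25 and 1.13. The 3 lower genes act in root iron uptake: the iron transporter IRT1 (AT4G19690) was 8.71 and 2.47 FPKM (-1.48), its neighbour IRT2 6.72 and 2.28 FPKM (-1.24), and FIT, the bHLH factor that activates them in the root epidermis, 3.34 and 0.900 FPKM (-1.19). With 5 FPKM added none of these 3 was past 2-fold. FRO2, the root ferric reductase that works with IRT1, was 1.57 and 1.93 FPKM (0.19), and AHA2, a proton pump of roots, was at 0.36. Ferritins, which store iron, were within 2-fold, FER1 at -0.49 and FER4 at -0.80.

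On chromatin, the iron genes were above the wild type in both mutant columns for 14 of 20 and below for 2, against 48.7% and 15.9% of all genes. BHLH100 was 1.40 and 1.12 FPKM in wild-type columns against 20.7 and 11.4 FPKM in the mutant. IRT1 was 0.243 FPKM and listed at 0 in the wild-type columns and 9.83 and 14.7 FPKM in the mutant, opposite to its mRNA. FRO2 was 0.148 FPKM and listed at 0 against 14.7 and 20.3 FPKM on chromatin.

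Camalexin, the main phytoalexin of Arabidopsis, had genes that were high in mRNA and low on chromatin in the mutant. In mRNA 7 of 10 genes of indole defence were higher and none lower, with a median of 3.35. Of the 10, 4 had wild-type values under 1 FPKM. CYP71A12 (AT2G30750) was 0.870 FPKM in the wild type and 115.9 FPKM in the mutant (5.97), and its near copy CYP71A13, which makes the camalexin precursor, was 0.323 and 27.9 FPKM (4.45). PAD3, the last enzyme of the pathway, was 1.18 and 22.0 FPKM (3.40). FOX1 and CYP82C2, of the related cyanogenic indole pathway, were at 0.328 and 33.4 FPKM (4.69) and 0.0112 and 6.98 FPKM (2.98). The shared early enzymes CYP79B2 and CYP79B3 were within 2-fold, at 0.50 and -0.54.

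On chromatin 9 of these 10 genes were below the wild type in both mutant columns and none was above, against 15.9% and 48.7% of all genes. CYP71A12 was 31.0 and 57.7 FPKM in the wild-type columns, then listed at 0 and at 0.322 FPKM in the mutant. PAD3 was 16.6 and 24.3 FPKM against 1.18 and 1.14 FPKM, and FOX1 was 17.4 and 28.8 FPKM against 0.915 and 1.06 FPKM. Among the 13270 genes with at least 5 FPKM in both kinds of RNA, 82 (0.618%) were higher in mRNA and lower on chromatin. The reverse held for 43 (0.324%), while 228 were higher in both and 92 lower in both. These genes were past 2-fold in both kinds of RNA, with chromatin-bound columns that did not overlap. The 2 kinds of RNA came from separate libraries, and whether they came from the same seedlings is not given.

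Glutathione transferases, which conjugate glutathione to reactive compounds, had part of the same pattern. Of 47 genes, 45 were kept, with a median of -0.10. Among them 13 were higher and 6 lower, against 5.51% and 5.94% of all genes, and with 5 FPKM added 7 were higher. Of the 45, 5 had wild-type values under 1 FPKM and were kept only through the mutant, including GSTU12 and GSTF3. GSTF6 (AT1G02930) was 50.2 and 751.2 FPKM in mRNA (3.88) and its adjacent copy GSTF7 63.4 and 630.8 FPKM (3.29), and both are uncertain as to which copy the reads came from. On chromatin GSTF6 was 123 and 195 FPKM in the wild-type columns and 36.6 and 28.7 FPKM in the mutant. GSTU12 was 0.370 and 22.0 FPKM (4.07) and GSTF3 0.217 and 16.1 FPKM (3.81) in mRNA, and both were lower in the 2 mutant chromatin columns. Chromatin-bound RNA was below the wild type in both mutant columns for 26 of 41 members and above for 5, against 15.9% and 48.7% of all genes. The lower mRNAs were led by GSTU14, at 24.5 and 3.59 FPKM (-2.47).

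**Figure D4:**
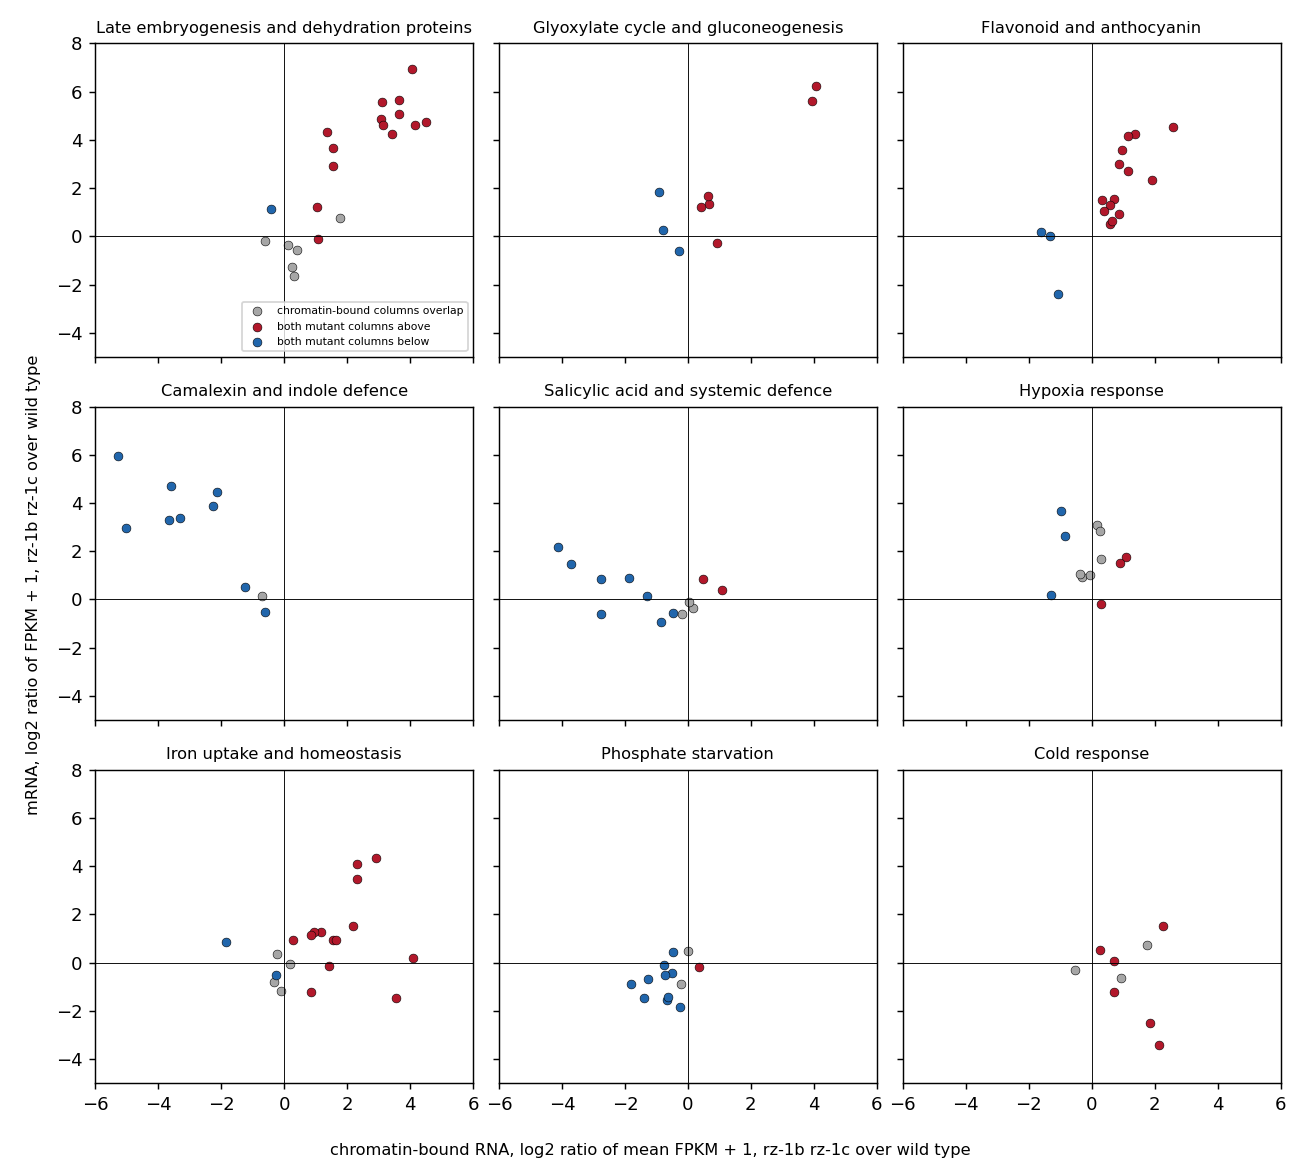
Log2 ratio of mRNA (y axis) against log2 ratio of chromatin-bound RNA (x axis), mutant over wild type, for members of 9 lists with at least 1 FPKM in both; colour gives whether the 2 mutant chromatin columns lie above (red), below (blue) or overlap (grey) the wild type. Late embryogenesis, flavonoid and glyoxylate genes with high mRNA ratios lie to the right, whereas 7 camalexin-list genes lie at the upper left and CBF1 and CBF2 of the cold list at the lower right.

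Salicylic acid defence differed little in mRNA. Of 16 genes, 14 were kept, 3 were higher and none lower, beside 5.51% and 5.94% of all genes. Those 3 were under 5 FPKM, and all had wild-type values under 1 FPKM and were kept only through the mutant. The pathogenesis-related genes were PR1 at 0.139 and 4.11 FPKM and PR2 at 0.0949 and 3.30 FPKM. The other was the kinase FRK1 at 0.209 and 2.32 FPKM. The synthesis gene ICS1 was 8.57 and 16.3 FPKM (0.85), and the regulators NPR1 and EDS1 were at -0.34 and -0.09. On chromatin 8 of 13 were below in both mutant columns and 2 above, against 15.9% and 48.7% of all genes. PR1 was there at 7.63 and 25.2 FPKM in the wild-type columns and listed at 0 in both mutant columns.

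Among WRKY factors, the regulators of defence genes, 53 of 67 were kept, 5 were higher and 6 lower, beside 5.51% and 5.94% of all genes, and the median was -0.06. With 5 FPKM added 2 were higher and 3 lower. WRKY40 was 80.4 and 6.59 FPKM (-3.42), WRKY33 168.3 and 41.4 FPKM (-1.997) and WRKY22 25.97 and 8.32 FPKM (-1.53). WRKY18, a close relative of WRKY40, went the other way at 11.96 and 50.5 FPKM (1.99), as did WRKY48 at 2.39 and 10.1 FPKM (1.71) and WRKY30 at 1.76 and 7.14 FPKM (1.56). On chromatin WRKY40, WRKY33 and WRKY18 were above the wild type in both mutant columns, WRKY33 with 130 and 161 FPKM against 177 and 304 FPKM. WRKY33 is a known activator of PAD3, so its mRNA and that of its target differed in opposite directions here.

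Jasmonate genes were mixed, 2 higher and 5 lower among 17 kept of 21, or 0 and 3 with 5 FPKM added. Over all genes 5.51% were higher and 5.94% lower. The storage-type phosphatase VSP1, a jasmonate marker, was 29.5 and 1.41 FPKM (-3.66). The lipoxygenases LOX4 and LOX3 were lower, at 16.96 and 2.58 FPKM (-2.33) and 10.9 and 3.80 FPKM (-1.31), whereas LOX2, the main lipoxygenase of wounded leaves, was 47.0 and 98.8 FPKM (1.06). MYC2, the central bHLH factor, was 48.6 and 18.2 FPKM (-1.37), and the transaminase TAT3 5.57 and 2.11 FPKM (-1.08). The synthesis enzymes AOS and OPR3 were at 0.03 and -0.10. None of the 9 JAZ repressors kept was past 2-fold, with a median of -0.33. On chromatin LOX3 and LOX4 were above the wild type in both mutant columns and LOX2 below, the reverse of their mRNA. The plant defensins did not move together: PDF1.4 was higher at 2.42 and 22.6 FPKM (2.79), PDF1.5 lower at 18.2 and 2.74 FPKM (-2.36), and PDF1.2 under 1 FPKM in both.

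Glucosinolates are sulphur-rich defence compounds. Of 22 genes of their synthesis and breakdown, 21 were kept, with a median of -0.73. Among them 7 were lower, against 5.94% of all genes, 14 lay within 2-fold and none was higher. BCAT4, the first enzyme of methionine side-chain elongation, was 154.4 and 39.2 FPKM (-1.95), MAM1, the next, 185.8 and 52.6 FPKM (-1.80), and CYP79F1 and CYP83A1, which build the core of aliphatic glucosinolates, 48.3 and 12.8 FPKM (-1.84) and 115.5 and 44.5 FPKM (-1.36). Of the MYB activators of the aliphatic branch, MYB29 was at 10.8 and 3.71 FPKM (-1.32) and MYB76 at 2.42 and 0.426 FPKM (-1.26), with MYB28 at -0.78. The myrosinase TGG1, which breaks glucosinolates down, was 1121 and 468.7 FPKM (-1.26). Genes of the indolic branch stayed within 2-fold, with CYP83B1 at 0.27, SUR1 at -0.23, MYB34 at -0.46, MYB51 at -0.04 and MYB122 at 0.99.

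Of 15 phosphate starvation genes, 6 were lower, against 5.94% of all genes, 9 lay within 2-fold and none was higher. The median was -0.87. SPX3, a sensor-type inhibitor induced in phosphate-starved plants, was 28.0 and 1.15 FPKM (-3.75). Of the genes that replace membrane phospholipids, the galactolipid synthase MGD3 was 27.1 and 2.61 FPKM (-2.96), the sulpholipid synthase SQD2 102.1 and 27.7 FPKM (-1.84), the phospholipase PLDZ2 9.51 and 2.57 FPKM (-1.56) and the phosphodiesterase GDPD1 114.3 and 40.7 FPKM (-1.47), while MGD2 and SQD1 were at -0.90 and -0.11. The root phosphate transporter PHT1;1 was 57.2 and 20.6 FPKM (-1.43). The regulators PHR1 and PHO2, which act upstream, were at -0.17 and 0.49. On chromatin 10 of 13 genes were below the wild type in both mutant columns, against 15.9% of all genes.

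Most root markers were lower in the same samples, and their part in these differences was not tested. Of 10 root hair and endodermis markers, 6 were lower (3 with 5 FPKM added) and none higher, with a median of -1.10 and summed levels of 292.9 FPKM in the wild type and 136.1 FPKM in the mutant. The root hair wall protein PRP3 was 81.1 and 27.7 FPKM (-1.52), PRP1 38.4 and 14.1 FPKM (-1.39), and the hair expansin EXPA18 23.0 and 8.35 FPKM (-1.36). CASP1, which marks the endodermal barrier, was 75.5 and 35.4 FPKM (-1.07), while the endodermis regulators SCR and SHR were at 0.30 and -0.17. Vascular markers had a median of -0.70, with 2 of 8 lower, namely the phloem sucrose transporter SUC2 at 154.1 and 38.8 FPKM (-1.96) and the xylem protease XCP2 at 73.3 and 33.4 FPKM (-1.11). None of 7 stomatal markers was past 2-fold. Of 7 flower and pollen markers, SEP3 alone was kept, at 2.79 and 0.457 FPKM, and A9 was listed at 0 in both genotypes.

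Nitrate and sulphate assimilation differed little, with 1 of 12 kept genes higher, SDI1, a sulphur-deficiency marker, at 4.49 and 15.8 FPKM (1.62). Over all genes 5.51% were higher and 5.94% lower. The nitrate reductases NIA1 and NIA2 were at -0.95 and -0.43. Sugar status genes were divided: 4 of 14 kept were higher, 3 lower and 7 within 2-fold, with a median of -0.04. The higher genes were the starch synthesis subunit APL3 at 9.31 and 76.4 FPKM (2.91), the plastid glucose-phosphate carrier GPT2 at 12.4 and 72.5 FPKM (2.46), the starch synthase GBSS1 at 29.0 and 68.8 FPKM (1.22), and QQS, which affects starch content, at 7.74 and 103.7 FPKM (3.58). The lower genes were asparagine synthetase ASN1 (AT3G47340) at 167.6 and 20.4 FPKM (-2.98) and SEN1 at 305.9 and 97.0 FPKM (-1.65), both known to rise in darkened leaves, and the beta-amylase BAM5 at 4.75 and 0.395 FPKM (-2.04). DIN10, another gene known to rise in darkened leaves, was at -0.22, and the other 6 within 2-fold lay between -0.70 and 0.38. ASN1 and SEN1 were also lower in both mutant columns on chromatin, and APL3, GPT2 and QQS were higher.

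The cold response list held 4 lower and 1 higher gene of 11, against 5.94% and 5.51% of all genes. The CBF factors, which switch on cold acclimation genes and lie in tandem with similar sequences, were lower: CBF1 (AT4G25490) was 13.6 and 0.361 FPKM (-3.42), CBF2 14.8 and 1.79 FPKM (-2.51) and CBF3 4.27 and 0.194 FPKM (-2.14). The zinc-finger factor ZAT10 was 42.1 and 17.8 FPKM (-1.20). Targets of the CBF factors did not differ alike, with COR15A at -0.30, COR78 at 0.74 and KIN1 at 72.4 and 207.7 FPKM (1.51). On chromatin CBF1 was 4.53 and 1.72 FPKM in the wild-type columns and 6.81 and 27.3 FPKM in the mutant, and the 2 mutant columns were far apart.

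Photosynthesis mRNAs, the most abundant in the seedlings, were shifted by less than 2-fold. Of 45 light-harvesting and photosystem genes none was lower and 1 was higher, with a median of -0.41, and their summed level was 183896 FPKM in the wild type and 126019 FPKM in the mutant. The antenna gene LHCB1.3 was the highest gene in both genotypes, at 23997 and 14931 FPKM (-0.68), followed in the wild type by LHCB1.5 at 16513 and 8950 FPKM (-0.88). These LHCB1 copies are near-identical, so the division of reads among them is uncertain. The exception, LHCB4.3, a minor antenna protein, was 10.5 and 23.4 FPKM (1.08). The 10 highest genes held 10.8% of the wild-type total and 8.18% of the mutant total.

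Carbon fixation genes went slightly the other way, with a median of 0.22 over 18 genes. Among them 2 were higher and 1 lower, beside 5.51% and 5.94% of all genes. The Rubisco small subunits RBCS1B and RBCS2B were at 504.1 and 1022 FPKM (1.02) and 1801 and 3628 FPKM (1.01), and RBCS1A, the main copy, was at 7784 and 10230 FPKM (0.39). CP12-2, a linker that holds Calvin cycle enzymes inactive in the dark, was 208.9 and 85.0 FPKM (-1.29). Of 12 chlorophyll synthesis genes 1 was higher, PORA, the protochlorophyllide reductase of dark-grown seedlings, at 6.62 and 18.1 FPKM (1.32). Its light-grown relatives PORB and PORC were at 0.69 and 0.68.

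Families linked to growth did not differ alike. Of 16 SAUR genes, small auxin-induced proteins that promote cell expansion, 15 were kept, 6 were lower and none higher, against 5.94% and 5.51% of all genes, with a median of -0.90. With 5 FPKM added 1 was lower. SAUR20, SAUR19 and SAUR24 were at 20.7 and 7.36 FPKM (-1.38), 11.9 and 4.04 FPKM (-1.36) and 24.7 and 9.98 FPKM (-1.23), and they belong to a cluster of similar copies. Among 23 Aux/IAA repressors kept, 2 were lower and 2 higher, IAA29 at 11.2 and 2.93 FPKM (-1.64) and IAA34 at 0.562 and 3.94 FPKM (1.66) being the farthest on each side. Of 23 expansins kept, 3 were lower, among them EXPA8 at 110.4 and 44.7 FPKM (-1.29), EXPA20 was higher at 2.96 and 11.1 FPKM (1.60), and the median was -0.09. Of 30 XTH genes, which remodel xyloglucan in the wall, 25 were kept, 6 were lower, 4 higher and 15 within 2-fold. The lower genes included XTH21 at 6.32 and 1.12 FPKM (-1.79) and XTH14 at 63.1 and 22.6 FPKM (-1.44). The higher genes included XTH32 at 19.0 and 62.8 FPKM (1.68) and XTH16 at 42.3 and 129.7 FPKM (1.59). The median over the XTH genes kept was 0.14, and with 5 FPKM added 1 was lower and 3 higher.

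Cell division genes were not past 2-fold. The median was -0.46 over 11 mitotic genes, with the cyclin CYCB1;2 at 24.5 and 13.5 FPKM and the cytokinesis protein KNOLLE at 50.3 and 29.3 FPKM. The median was -0.27 over 12 replication-dependent histone genes, whose copies share sequence. None of 6 type-A cytokinin response regulators was past 2-fold either. Of 9 gibberellin genes 1 was lower, 1 higher and 7 within 2-fold, with a median of 0.17. Over all genes 5.94% were lower and 5.51% higher. The synthesis enzyme GA20OX2 was 9.20 and 3.53 FPKM (-1.17) and the inactivating enzyme GA2OX2 3.52 and 13.2 FPKM (1.65). With 5 FPKM added GA20OX2 was not past 2-fold. Of 12 leaf shape genes 11 were kept, 2 were higher and 9 lay within 2-fold, with a median of 0.47. The meristem factor KNAT1 was 7.44 and 18.0 FPKM (1.17) and the boundary factor CUC1 0.459 and 2.46 FPKM (1.24). Both were higher in the 2 mutant columns on chromatin. CUC1 was kept only through the mutant, and with 5 FPKM added neither mRNA was past 2-fold.

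Flowering genes differed in a few members. The floral repressor FLC was 6.10 and 3.56 FPKM (-0.64), and none of the 6 genes of its clade was past 2-fold. SVP, the repressor that acts with FLC, was 59.3 and 20.5 FPKM (-1.49), with chromatin-bound values of 11.98 and 12.1 FPKM against 4.62 and 5.19 FPKM. TEM2, a repressor of FT, was 263.0 and 127.4 FPKM (-1.04). FT itself was under 1 FPKM in both genotypes, and SOC1, an integrator, was at 18.2 and 11.1 FPKM (-0.67). In the autonomous pathway FPA, an RNA-binding protein that controls where transcripts end, was 11.6 and 36.4 FPKM (1.57) and the other 6 genes lay between -0.06 and 0.16. On chromatin FPA was 18.8 and 19.4 FPKM against 40.0 and 41.7 FPKM.

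The circadian clock differed little, beside 5.51% of all genes higher and 5.94% lower. Of 12 morning genes 1 was lower, RVE7 at 27.6 and 12.9 FPKM (-1.04), and CCA1 and LHY were at 0.21 and 0.25. Of 17 day and evening genes kept, PRR3 was higher at 3.04 and 9.15 FPKM (1.33), and ELF4 and CDF3 were lower at -1.02 and -1.004, close to the threshold. Quantile scaling left neither of these 2 past it.

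Splicing factor mRNA, the group closest to the known role of RZ-1 proteins, was nearly equal in the genotypes. Of 20 SR factors 1 was higher, RS31A at 5.01 and 11.9 FPKM (1.10), none was lower and the median was 0.06. None of 15 spliceosome and RNA surveillance genes was past 2-fold, with a range of -0.30 to 0.51. On chromatin the mutant columns were above the wild type for 17 of the 20 and for 15 of the 15, against 48.7% of all genes. STA1, a splicing factor, was 38.4 and 39.5 FPKM against 104 and 86.3 FPKM there and 20.6 and 29.6 FPKM in mRNA (0.51). Of 10 housekeeping genes none was past 2-fold, with a median of -0.07.

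The single largest mRNA ratios partly lay outside these lists. The lists of named genes hold chosen members, so a gene outside them may still be of the same kind. Among 12 genes taken as the largest on the higher side with at least 5 FPKM, AT1G68250 was 0.247 and 266.1 FPKM (7.74) and AT3G02480 53.3 and 2893 FPKM (5.74), with chromatin-bound values of 2.38 and 3.61 FPKM against 52.1 and 58.2 FPKM for the latter. LCR67 (AT1G75830), a defensin-type protein, was 1.47 and 180.0 FPKM in mRNA (6.19) whereas on chromatin it was 1.25 and 1.90 FPKM in the wild-type columns, and 0.451 FPKM and listed at 0 in the mutant columns. AT5G66780, AT4G21020 and AT5G44310 were at 6.19, 6.22 and 6.12, and their chromatin-bound RNA was also above the wild type in both mutant columns. On the lower side AT3G05727 was 446.5 and 5.15 FPKM (-6.18), with 66.0 and 61.7 FPKM against 10.1 and 8.12 FPKM on chromatin.

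Several short non-coding genes were among the highest values of 1 genotype whose counterpart is listed at 0, where no ratio is given. In the mutant the miRNA gene MIR833a was listed at 0 against 137.9 FPKM in the wild type, the snoRNA gene AT1G03502 against 116.8 FPKM, MIR397b against 67.8 FPKM and AT2G46567 against 57.4 FPKM. In the wild type the lncRNA gene AT2G24592 was listed at 0 against 675.2 FPKM in the mutant, AT4G16240 against 42.9 FPKM, MIR775 against 42.0 FPKM and MIR171b against 30.7 FPKM. The chromatin-bound RNA of MIR833a and AT2G24592, the highest on each side, did not share the gap. MIR833a was 2.14 and 2.23 FPKM in the wild-type columns and 2.32 and 5.14 FPKM in the mutant. AT2G24592 was 17.5 and 5.51 FPKM against 17.1 and 22.6 FPKM. In an FPKM table a short gene gets a high value from few fragments, and an exact 0 can also be a failed estimate. Among 43 miRNA genes kept, 10 were higher and 13 lower, and among 13 snoRNA genes 8 were higher and 2 lower. Over all genes 5.51% were higher and 5.94% lower. How many of these miRNA and snoRNA genes were kept through 1 genotype only was not counted.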

How the data were processed

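The authors deposited mRNA as 1 value per gene and genotype, pooled over 3 libraries each in a way not given in the sources used here. The unit is not written in the file and was read as FPKM because the submitters' processing notes name Cuffdiff. The deposited fold change and q columns were not used. Chromatin-bound RNA was deposited by the authors as FPKM in 2 replicate columns per genotype, each from 2 libraries. Per the labels' protocols it was depleted of rRNA and polyadenylated RNA. The files hold 1 column of per-sample values that stayed unused, a repeat of mutant replicate 2 with identical values. Per the submitters' processing notes the genome was TAIR10 and the tools were TopHat2 2.1.1, Cufflinks and Cuffdiff 2.2.1, with HISAT2 2.0.5 and StringTie 1.3.4d, but their roles are not stated.

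Ratios are log2((mutant + 1)/(wild type + 1)) for genes that reach 1 FPKM in either genotype, so they understate the change of low genes, and they are called past 2-fold at a log2 of 1. Chromatin-bound ratios use the mean of the 2 columns, and their level is not read against the mRNA level. Sums and ratios were computed in Python 3.11.15 with pandas 2.3.3 and numpy 2.4.6, and the steps were tested on simulated data. Gene symbols were looked up in RefSeq's table for TAIR10.1, which matched 32807 of 33554 identifiers. Sequences and coordinates are not used here.

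The 40 lists of named genes and 8 families by symbol (777 genes), and the members, were chosen with earlier results of these data known, and 4 more lists were chosen after the values were seen. Genes named are those of the RZ-1 family, the 12 largest differences in each direction at 5 FPKM or more, up to 6 members of each list past 2-fold by size (or the 2 highest where none was), the 4 highest genes listed at 0 in the other genotype and the 5 highest genes per genotype. Other named members, given for a known role beside these, were chosen after their values were seen. Alternatives were pseudocounts of 0.1 and 5, other level filters, median-of-ratios and quantile scaling, and leaving out each chromatin-bound column.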

Additional observations from a re-analysis of the deposited data

Results flagged for a closer look

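A set of named genes stood past 2-fold in opposite directions in the 2 kinds of RNA, with the mutant chromatin-bound columns not overlapping those of the wild type. These differences between kinds of RNA were not tested, since the mRNA has 1 value per genotype. Of the genes higher in mRNA and lower on chromatin, those of indole defence had mRNA log2 ratios of 5.97 for CYP71A12, 4.69 for FOX1, 4.45 for CYP71A13, 3.40 for PAD3 and 2.98 for CYP82C2, beside chromatin-bound ratios of -5.29, -3.60, -2.14, -3.31 and -5.03. The glutathione transferases GSTF6, GSTF7, GSTU4, GSTF2 and GSTL1 were at 3.88, 3.29, 2.07, 1.43 and 1.02 in mRNA and at -2.25, -3.64, -1.91, -2.63 and -1.16 on chromatin. The defensin PDF1.4 was at 2.79 and -2.25, WRKY45 at 1.26 and -2.12, LHCB4.3 at 1.08 and -1.11 and LOX2 at 1.06 and -1.95.

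In the other direction, CBF1 was at -3.42 in mRNA and 2.13 on chromatin and CBF2 at -2.51 and 1.85. RZ-1B was at -2.30 and 3.66, IRT1 at -1.48 and 3.56, NCED3 at -1.35 and 1.45 and LOX3 at -1.31 and 1.45. The clock-related genes RVE7 and CDF3 were at -1.04 and 1.75 and at -1.004 and 1.11. CBF1 and CBF2 rest on mutant chromatin columns that differ from each other, 6.81 and 27.3 FPKM for CBF1 and 25.6 and 74.8 FPKM for CBF2.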

How the results depend on the processing

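With 0.1 in place of 1 added to each value, 1582 genes were higher and 1737 lower, and with 5 added 508 were higher and 561 lower, since low genes then shrink. A filter at 5 FPKM, no filter, median-of-ratios scaling, quantile scaling and leaving out genes listed at 0 gave 806 to 1147 higher and 949 to 1218 lower, against 1122 and 1210. The share of genes lower in mRNA but past 2-fold higher on chromatin, 6.53%, was 11.1% with 0.1 added, 3.89% with median-of-ratios scaling of the chromatin-bound columns, and between 4.76% and 12.5% when 1 column was left out, the highest without wild-type replicate 1. The share lower in both was 15.2%, and 23.0% with 0.1 added. The cause was not tested. No named gene past 2-fold changed sign under the alternatives run for it. List medians were not recomputed. Member counts of lists moved by more than 1.5 times in 27 cases with 5 added and in 12 with 0.1 added. No paired analysis was possible because the mRNA table holds 1 value per genotype, and for the same reason no mRNA library could be left out.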

Other observations

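A list of genes known to respond to impaired mitochondria, chosen after the values were seen, held 14 higher and no lower members of 17, with a median log2 ratio of 2.26. The mitochondrial protein UPOX was 5.75 and 134.6 FPKM (4.33), the alternative NADH dehydrogenase NDB4 0.176 and 12.4 FPKM (3.51), and the glucosyltransferase UGT74E2 1.60 and 46.0 FPKM (4.18). NAC13, a factor that regulates such genes, was 3.72 and 21.6 FPKM (2.26), and the alternative oxidase AOX1A 43.3 and 94.0 FPKM (1.10). Mutant chromatin-bound columns were above the wild type for 11 of the 17 and below for 2, against 48.7% and 15.9% of all genes.

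Genes induced within minutes of touch or wounding, also listed after the values were seen, were lower in 11 of 20, with none higher and a median of -1.13. The ethylene synthesis gene ACS6 was 51.7 and 15.9 FPKM (-1.64), the kinase MPK3 158.9 and 54.7 FPKM (-1.52), the calmodulin-like TCH3 333.9 and 130.2 FPKM (-1.35) and ORA47 10.8 and 2.07 FPKM (-1.94). TCH4 and TCH2 were at -0.27 and 0.20. On chromatin the mutant columns were above the wild type for 13 of the 20 and below for none, against 48.7% and 15.9% of all genes. The labels do not say how the seedlings were handled at harvest.

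The thalianol and marneral gene clusters, which make root triterpenes, held 7 lower genes of 7, against 5.94% of all genes. This list was likewise chosen after the values were seen, so its count was shaped by that choice. Thalianol synthase THAS1 was 88.2 and 15.2 FPKM (-2.46), and marneral synthase MRN1 74.0 and 15.5 FPKM (-2.18). Root markers were lower too, with a median of -1.10, and their part was not tested. A separate run of genes with neighbouring identifiers, AT4G22460 to AT4G22520, was also picked after the values were seen. It held 7 lower and 1 higher of 9, against 5.94% and 5.51% of all genes. AT4G22505 was 127.6 and 2.66 FPKM (-5.14), AT4G22485 151.2 and 3.51 FPKM (-5.08) and AT4G22490 185.3 and 17.1 FPKM (-3.37), while AT4G22470 within the run was 5.21 and 28.4 FPKM (2.24). These genes may share sequence, so the division of reads among them is uncertain. On chromatin 7 of 8 were below the wild type in both mutant columns, against 15.9% of all genes.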
